A study of Mus musculus with 32 samples.

Results

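Bcl11b and Runx3 are 2 transcription factors of developing T cells, and their binding was compared here in 1 mouse cell line, Scid.adh.2c2, a pro-T-like line. All intervals of the authors' Bcl11b list (17874) and Runx3 list (20523) for this line were used, and they were split by whether they overlapped by at least 1 bp. This gave 13139 regions shared by both factors, 4735 Bcl11b peaks without Runx3 and 7384 Runx3 peaks without Bcl11b, 25258 regions of the 215616 intervals in the 8 peak lists of the series. The 2 kinds of unshared peak are called lone peaks below. Each list came from 2 ChIP libraries of cells fixed with DSG, which links proteins to proteins, and then with formaldehyde, so a peak need not mean direct contact with DNA. Bcl11b was pulled down with a mixture of 4 antibodies and Runx3 with an antibody of its own. RNA was measured in 2 libraries of Scid.adh.2c2 cells transduced with sgControl-CFP, a control guide, and in 2 libraries of cells transduced with sgBcl11b-CFP, a guide against Bcl11b. The guide vectors carry CFP, and no other allele or agent is named in the labels of these groups. The study asked how Bcl11b acts in T-lineage cells and in group 2 innate lymphoid cells, and the ILC2/b6 line stands for the latter. Scid.adh.2c2 is a single established line, and binding was measured in cells for which the labels name no guide.

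Bcl11b is a zinc finger factor needed for commitment of progenitors to the T lineage, and it recruits corepressor complexes such as NuRD. Runx factors bind DNA through the Runt domain with Cbfb, the subunit they share. Runx1 is the main family member in early T-cell precursors, and Runx3 is known for silencing Cd4 in CD8 T cells and for its part in innate lymphocytes. Both Runx factors read the same short DNA word, TGTGGT, and Ets family factors read the word CCGGAAG.

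The promoters below show the DNA next to 9 peaks of the 3 kinds at genes whose RNA is described further on; they were chosen after their values were seen. Each is the stretch of 250 bases before the start site of the RefSeq gene model on GRCm38.p6, read 5′ to 3′ toward the start site. Capitals mark TGTGGT or its reverse complement (a Runx core), and in Fcer1g alone CCGGAAG, which was marked in the same way. The 9 are not a sample of their kinds: the shares over all such promoters follow below, and most promoters of every kind hold no Runx core. The peaks were called on mm9, so each promoter was matched to its peak by gene symbol and by the distance to the start site in the authors' list, not by coordinates. Rag1 has a shared peak centred 52 bp before the start site (chr2:101649533-101649782, minus strand), with 2 cores 81 and 67 bases before it. Cxcr6 has a shared peak at 21 bp before (chr9:123806227-123806476, plus strand), with 1 core 10 bases before. Il9r has a shared peak at 56 bp before (chr11:32200280-32200529, minus strand), with 1 core 83 bases before. Fcer1g, with a shared peak 65 bp before (chr1:171234350-171234599, minus strand), holds no Runx core. Nrarp, lone Bcl11b peak at 164 bp before (chr2:25180508-25180757, plus strand), and Il17rb, lone Bcl11b peak 20 bp after (chr14:30008897-30009146, minus strand), hold no core. Il7r, lone Runx3 peak 25 bp after (chr15:9529877-9530126, minus strand), and Ptcra, lone Runx3 peak 11 bp before (chr17:46763713-46763962, minus strand), hold none in these bases either. Rbbp4, lone Runx3 peak 88 bp before (chr4:129335371-129335620, minus strand), holds 1 core 157 bases before.
Rag1: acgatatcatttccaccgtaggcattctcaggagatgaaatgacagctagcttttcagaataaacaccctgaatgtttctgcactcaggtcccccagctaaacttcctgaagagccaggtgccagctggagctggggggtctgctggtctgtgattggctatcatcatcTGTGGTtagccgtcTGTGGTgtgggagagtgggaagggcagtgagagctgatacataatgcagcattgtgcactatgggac
Cxcr6: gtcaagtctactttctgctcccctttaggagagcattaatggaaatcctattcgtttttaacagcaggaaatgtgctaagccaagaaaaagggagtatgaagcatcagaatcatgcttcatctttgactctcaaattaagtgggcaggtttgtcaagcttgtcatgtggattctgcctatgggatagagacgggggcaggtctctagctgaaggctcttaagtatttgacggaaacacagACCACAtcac
Il9r: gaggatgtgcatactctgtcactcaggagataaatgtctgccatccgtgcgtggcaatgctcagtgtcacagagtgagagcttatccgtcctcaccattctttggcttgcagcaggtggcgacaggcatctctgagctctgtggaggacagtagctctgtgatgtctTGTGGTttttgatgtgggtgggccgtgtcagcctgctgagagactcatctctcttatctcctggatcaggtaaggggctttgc
Fcer1g: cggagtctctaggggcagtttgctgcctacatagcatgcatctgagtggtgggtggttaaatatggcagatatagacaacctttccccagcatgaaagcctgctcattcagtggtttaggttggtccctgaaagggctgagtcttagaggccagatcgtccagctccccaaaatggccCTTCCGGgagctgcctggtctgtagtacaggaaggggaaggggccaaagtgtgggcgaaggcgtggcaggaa
Nrarp: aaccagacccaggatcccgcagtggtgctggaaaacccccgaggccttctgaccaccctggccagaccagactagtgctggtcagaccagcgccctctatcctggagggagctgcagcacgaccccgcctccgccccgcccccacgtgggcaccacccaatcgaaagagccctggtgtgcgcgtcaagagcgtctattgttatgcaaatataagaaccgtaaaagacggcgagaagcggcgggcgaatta
Il17rb: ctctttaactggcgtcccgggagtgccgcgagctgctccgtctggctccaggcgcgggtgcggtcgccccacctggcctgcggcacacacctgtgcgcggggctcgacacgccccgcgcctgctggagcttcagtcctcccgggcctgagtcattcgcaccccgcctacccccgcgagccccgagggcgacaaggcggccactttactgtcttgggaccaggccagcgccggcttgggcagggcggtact
Il7r: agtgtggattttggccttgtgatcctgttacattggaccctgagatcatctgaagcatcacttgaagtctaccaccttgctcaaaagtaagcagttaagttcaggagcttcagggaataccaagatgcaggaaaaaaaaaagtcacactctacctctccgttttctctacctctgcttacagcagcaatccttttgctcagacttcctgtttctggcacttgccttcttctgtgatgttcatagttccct
Ptcra: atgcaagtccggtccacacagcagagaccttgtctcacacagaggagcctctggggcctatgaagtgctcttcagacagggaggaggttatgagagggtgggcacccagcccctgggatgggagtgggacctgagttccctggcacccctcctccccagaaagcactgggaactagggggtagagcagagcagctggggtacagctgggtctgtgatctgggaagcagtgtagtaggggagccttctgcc
Rbbp4: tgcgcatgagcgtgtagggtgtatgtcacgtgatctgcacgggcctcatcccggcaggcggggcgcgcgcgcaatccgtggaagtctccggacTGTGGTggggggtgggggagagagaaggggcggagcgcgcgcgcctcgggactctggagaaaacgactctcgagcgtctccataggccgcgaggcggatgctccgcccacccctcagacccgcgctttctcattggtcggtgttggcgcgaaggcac

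Across all promoters with a peak centre from 250 bases before to 50 after the start site, the Runx core was rarer under lone Bcl11b peaks than under the other kinds. It stood in 13.4% of the 3073 promoters with shared peaks alone, in 8.65% of the 584 with lone Bcl11b peaks alone and in 14.2% of the 726 with lone Runx3 peaks alone. Over all 27025 genes of the RefSeq promoter table it stood in 16.9%, on either strand of the 300 bases. The Ets word CCGGAAG went another way, at 28.7% for shared peaks, 21.0% for lone Bcl11b peaks, 18.2% for lone Runx3 peaks and 9.07% for all genes. The GATA word AGATAA was held by 4.86%, 5.27% and 4.86% of these promoters, and by 11.3% of all. The CCAAT box, the word CCAAT read by NF-Y, was most frequent under lone Runx3 peaks, at 48.4% against 38.6% for shared peaks, 37.5% for lone Bcl11b peaks and 37.8% for all genes. The mean GC content was 62.6%, 60.9% and 59.6% in the 3 groups and 53.6% over all genes. The Ets shares stood in the same order and the Runx and CCAAT shares did not, and the part of base composition in them was not tested. Between 81.3% and 82.6% of the genes of each group had a promoter in the table. A match is a description of letters, not of a binding site, and 14 words were searched in all.

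The overlap rule itself bounds how far apart the centres of a shared pair can lie, and the largest distance was 246 bp. Within that bound the shared regions were mostly close matches in position. Each shared Bcl11b interval met a single Runx3 interval, the median overlap was 213 bp of intervals 237 bp (Bcl11b) and 257 bp (Runx3) wide, and the centres lay a median of 34 bp apart. In 64.3% of the 13139 pairs the centres were within 50 bp. Shared regions made up 73.5% of the Bcl11b list and 64.0% of the Runx3 list. The line between shared and lone held few peaks: 56 pairs overlapped by 1 to 10 bp, and 50 pairs missed each other by a gap of 0 to 9 bp. Lone peaks often had the other factor nearby all the same. Of the lone Bcl11b peaks, 24.7% lay under 500 bp from a Runx3 peak and 40.9% under 2000 bp. For lone Runx3 peaks these shares were 13.3% and 22.5%. Each factor has 1 list, so the differences between the 3 kinds of peak have no replicate test, and intervals printed with shares of peaks are exact binomial 95% intervals that cover counting error only.

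The authors' peak scores were higher where both factors were listed. The median score of shared regions was 30.5 in the Bcl11b list and 35.4 in the Runx3 list, against 22.1 for lone Bcl11b and 22.6 for lone Runx3 peaks. The share of Bcl11b peaks that overlapped a Runx3 peak was 57.2% among the lowest scores when the list was cut into 4 score bins of near-equal size, then 68.9% and 79.0%, and 89.3% in the highest bin. For Runx3 peaks it went from 42.1% through 57.1% and 71.5% to 85.7%. Even so, 476 Bcl11b peaks and 734 Runx3 peaks of the highest bins were lone. These lone Bcl11b peaks overlapped a Runx1 peak in 26.1% of cases, against 93.2% of the shared ones in that bin. The lone Runx3 peaks of the highest bin did so in 87.3% of cases, against 99.0% of the shared ones.

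**Figure D1:**
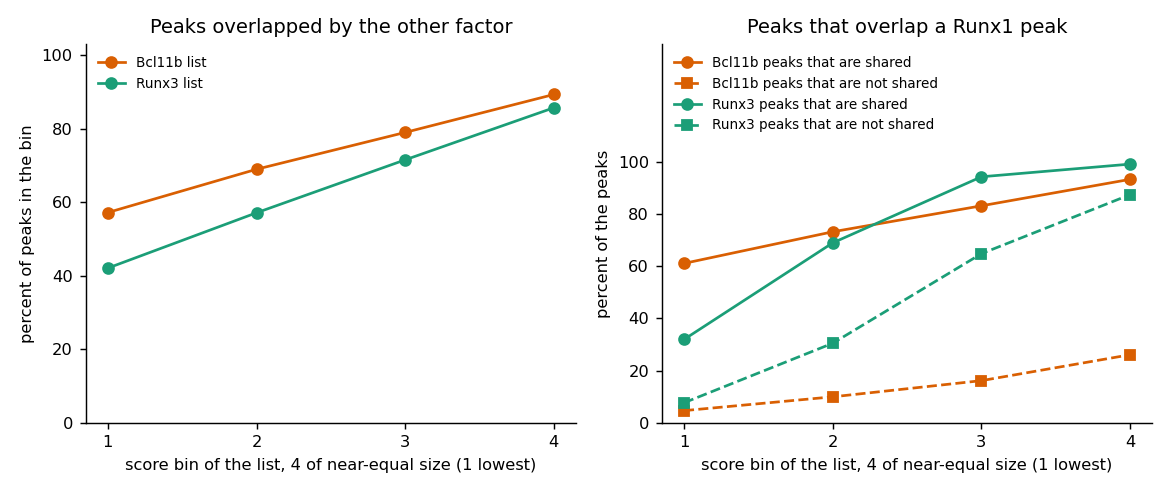
Left, percent of the peaks of each list overlapped by the other factor, in 4 score bins of the list from the lowest (1) to the highest (4); right, percent of shared (circles, solid lines) and lone peaks (squares, dashed lines) that overlap a Runx1 peak. The overlap rises with each bin, to 89.3% for Bcl11b and 85.7% for Runx3, while lone Bcl11b peaks stay at or under 26.1% for Runx1.

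Shared and lone Bcl11b peaks lay mostly nearer to start sites than lone Runx3 peaks. The promoter annotation of HOMER was carried by 38.5% of shared regions (interval 37.6 to 39.3), 28.6% of lone Bcl11b peaks (27.3 to 29.9) and 19.6% of lone Runx3 peaks (18.7 to 20.5). Introns and intergenic DNA held 37.9% and 37.1% of the lone Runx3 peaks, 30.9% and 30.9% of the lone Bcl11b peaks, and 27.8% and 27.5% of the shared regions. The median distance to a start site was 3140 bp for shared regions, 2704 bp for lone Bcl11b peaks and 12988 bp for lone Runx3 peaks. Within 100 bp of a start site lay 25.1% of shared regions, 14.8% of lone Bcl11b peaks and 10.8% of lone Runx3 peaks. At 1 kb the first 2 kinds came together, with 44.2% and 42.8%, and lone Runx3 peaks had 25.3%. The order of shared and lone Bcl11b peaks at 1 kb turned with the score and with the way peaks were matched. With the 1 bp rule it was 37.6% against 33.4% in the lowest of the 4 Bcl11b score bins. In the highest bin it was 43.3% against 57.8%. With only peaks of score 30 or more, where a partner of lower score no longer counts, it was 40.2% against 57.9%. With an overlap of at least 50% of each peak's width it was 41.6% against 48.1%. Under these last 2 settings lone Runx3 peaks were lowest, at 35.1% and 31.5%.

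**Figure D2:**
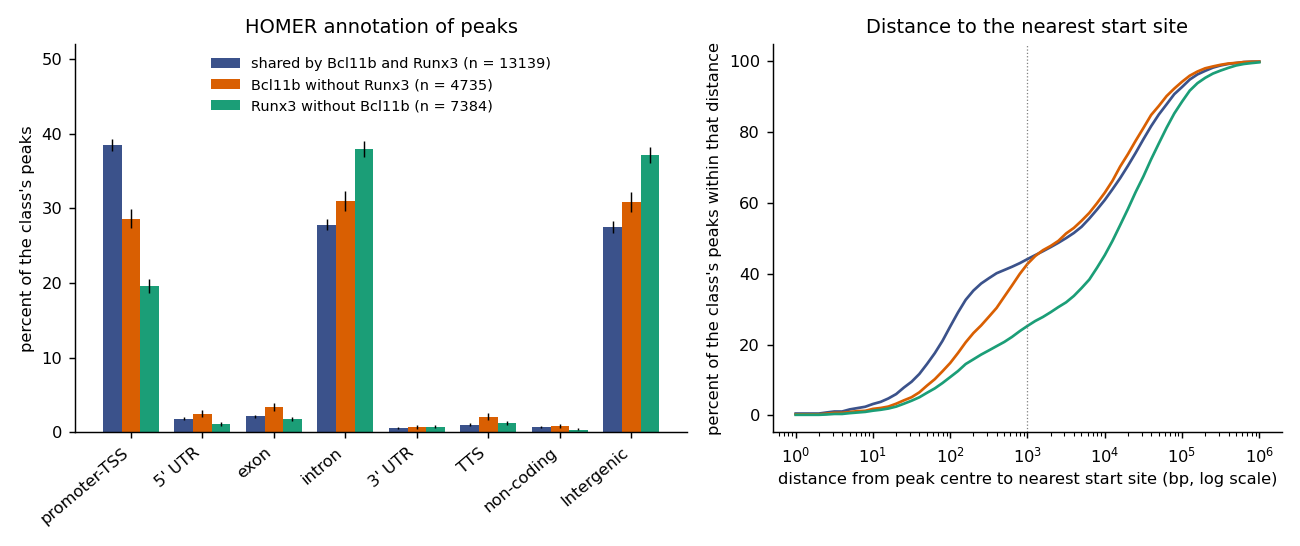
Left, percent of the peaks of each kind by HOMER annotation, with exact binomial 95% intervals; right, the cumulative percent of peaks within a distance of the nearest start site (log axis, dotted line at 1 kb). Shared regions lead closest to start sites, shared and lone Bcl11b peaks meet at 1 kb (44.2% and 42.8%), and lone Runx3 peaks stay below both there at 25.3%.

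Repeat and CpG island labels differed between the kinds as well. Each peak carries 1 detailed label, so a peak labelled with another feature, such as a promoter, is not counted under these. The part of the unequal promoter shares in these differences was not tested. The detailed annotation named a CpG island for 6.86% of lone Bcl11b peaks, 3.32% of shared regions and 2.42% of lone Runx3 peaks. A repeat covered the annotated position of 21.5% of lone Runx3 peaks, against 9.45% of shared regions and 8.98% of lone Bcl11b peaks. LTR elements, remnants of retroviruses, made up 7.94%, 4.29% and 4.03% in that order. Simple repeats held 2.30% of lone Runx3 peaks, 170 in all, against 0.129% of shared regions and 0.380% of lone Bcl11b peaks. Of these 170, 30 were (CCA)n and 25 were (TGG)n, 2 names for 1 repeat read on either strand. Lone Bcl11b peaks in LTRs were most often in MMVL30-int, 40 of 191. In lone Runx3 peaks the leading LTR was RLTR45 (62 of 586), and in shared regions it was ORR1E (59 of 564). How well 50 nt reads map in such repeats was not tested.

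Of the 4 other lists looked up, the Runx1 list separated the kinds most. A Runx1 peak overlapped 79.5% of shared regions (interval 78.7 to 80.1), 33.6% of lone Runx3 peaks (32.5 to 34.7) and 10.6% of lone Bcl11b peaks (9.76 to 11.5). Lone Bcl11b peaks overlap no listed Runx3 peak by definition, so the 89.4% of them without Runx1 overlapped no listed Runx peak. Of the whole Runx3 list, 63.2% overlapped a Runx1 peak. Setting aside Runx3 sites therefore also set aside many Runx1 sites, and the part of this in the low share was not tested. The order of the Runx1 shares held near start sites, with 80.2%, 49.4% and 16.7% within 1 kb, and away from them, with 78.9%, 28.3% and 6.05%. GATA3, the zinc finger factor that specifies T cells and ILC2s, overlapped 20.8% of shared regions, 15.3% of lone Bcl11b peaks and 15.5% of lone Runx3 peaks. These GATA3 overlaps lay away from start sites: beyond 1 kb they were 32.9%, 23.0% and 18.6%, and within 1 kb 5.52%, 4.99% and 6.11%. The GATA3 list is the longest used in this line, with 36973 intervals, and 4.28% of its intervals lay within 1 kb of a start site.

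The same positions were then looked up in the ILC2/b6 lists of the 2 factors. Bcl11b was listed there at 45.9% of shared regions and 35.4% of lone Bcl11b peaks. In contrast, 11.5% of lone Runx3 peaks carried Bcl11b in ILC2/b6. Runx3 was listed in ILC2/b6 at 66.0% of shared regions, 49.1% of lone Runx3 peaks and 32.6% of lone Bcl11b peaks. Near start sites the Runx3 shares were 87.3%, 76.1% and 44.3%. Thus the Scid.adh.2c2 sites without Runx3 also had the lowest share with Runx3 in ILC2/b6, while its list of 44938 intervals is longer than the Scid.adh.2c2 one.

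**Figure D3:**
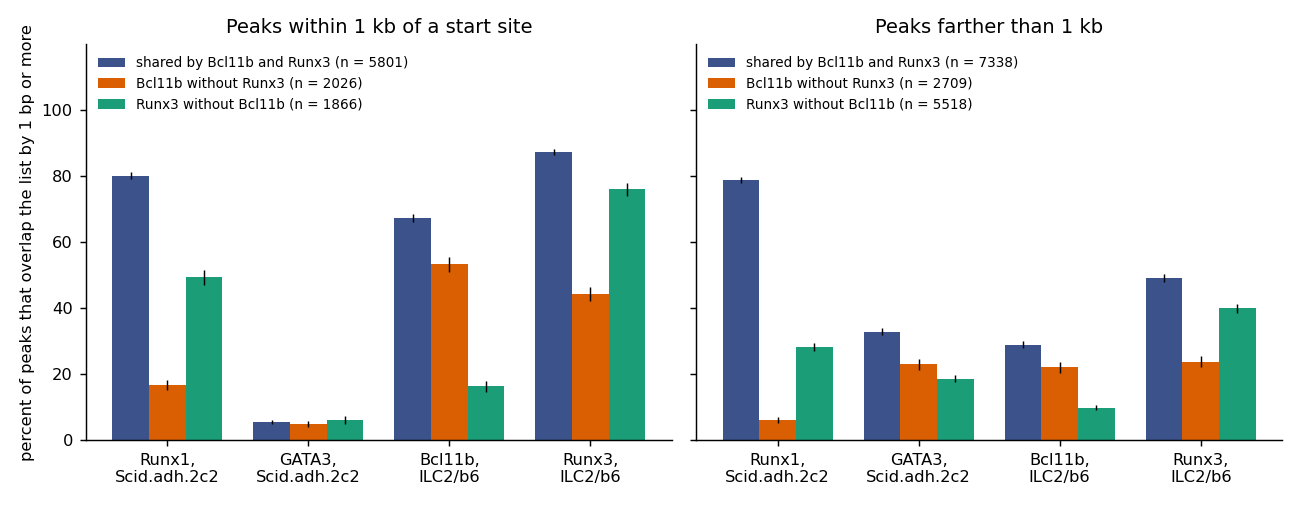
Percent of the peaks of each kind that overlap by 1 bp or more a peak of Runx1 or GATA3 in Scid.adh.2c2, or of Bcl11b or Runx3 in ILC2/b6, for peaks within 1 kb of a start site (left) and farther away (right), with exact binomial 95% intervals. Lone Bcl11b peaks have the lowest Runx1 shares, 16.7% and 6.05%, and GATA3 overlap is seen mainly beyond 1 kb.

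The highest scores belonged to single intervals far above the rest. The top shared region, chr15:74917126-74917362 (mm9, intergenic, 25123 bp from the start site of Ly6c2), scored 3040.2 for Bcl11b and 3713.9 for Runx3. It was in neither the Runx1 nor the GATA3 list of the line, nor in the ILC2/b6 lists of either factor. The next shared regions fell to 585.7 and 367.6 (Gm21119 and 6820431F20Rik, both on chromosome 8), 359.6 (Ptma) and 333.0 (Zfp568), and all of these were in the Runx1 list. The top lone Bcl11b peak scored 2182.9 in an intron of Hgsnat, a lysosomal acetyltransferase gene (chr8:27080127-27080363), and the closest Runx3 peak was 24117 bp away. Next came 2 intergenic peaks named for Rdm1 with scores of 687.8 and 522.1 (chr11:101506713-101506949 and chr11:101503356-101503592). Each of them lay beside a Runx3 peak of score 75.5 that missed it by 38 and 37 bp. A peak in Rn45s, the ribosomal RNA repeat, scored 591.7, and a promoter peak of Phactr4 scored 237.1 with a Runx3 peak 215 bp away. The top lone Runx3 peaks scored 592.4 in an intron of Tdrd1, 457.9 near G530011O06Rik, 409.7 at Mir6965, 383.9 in an intron of Grhl3 and 382.7 in an intron of Mrps28. All 5 were in the ILC2/b6 Runx3 list and none in its Bcl11b list. Rn45s and the members of copied gene families (Gm21119, 6820431F20Rik, Dynlt1f and the Ly6 genes) can share reads between near-identical copies, so their peaks and RNA values are uncertain.

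RNA of the targeted gene was looked at first. Bcl11b RNA was 47 and 49.5 RPKM with the control guide and 47.1 and 46.8 RPKM with the Bcl11b guide (log2 difference -0.039 ± 0.042, adjusted p = 0.455). The 4 libraries overlapped and the difference did not pass the test, so RNA level gives no check of the guide label. With median centring it was -0.17 and was called (adjusted p = 0.00856), as with quantile scaling (-0.11, adjusted p = 0.0460). The 2 libraries labelled with the Bcl11b guide are called Bcl11b guide libraries after that label alone. In the differences below, a change is the Bcl11b guide minus the control guide on log2(RPKM + 0.5) with its SE, tested with limma, an adjusted p is adjusted over all 10221 genes tested, and a gene was called when that was under 0.05. Of these genes 57.8% were called, 35.1% rose and 22.7% fell, so a call by itself says little here. Calls that were also 2-fold or more covered 8.43% of genes, 6.75% up and 1.68% down. The deposited scaling matters for small changes: centring each library on its median lowered every change by 0.134 on the log2 scale, and the called genes then split into 2466 higher and 3934 lower, against 3589 and 2319 as deposited. The libraries held 34.7 to 43.7 M reads (M for mega), by the steps of their low RPKM values. Bulk RNA does not tell fewer cells of a type from less RNA per cell. The labels do not say whether replicates were separate cultures, so p-values measure only the spread between these libraries. All 9 pro-T markers were at 1 RPKM or more in every library, their sum was 1246 and 1289 RPKM for the control guide and 780.1 and 786 RPKM for the Bcl11b guide. Within that sum Cd3e was at 173 and 174 RPKM against 172 and 174 RPKM and Cd3g at 136 and 129.9 RPKM against 158 and 161 RPKM. All the other pro-T markers were lower in both guide libraries than in both control libraries: Ptcra, Rag1, Il2ra, Tcf7, Notch1, Lck and Thy1. Tcf7, the highest of the 9, was at 389 and 390 RPKM against 216 and 218 RPKM. Markers of B cells (0.204 to 0.349 RPKM summed), myeloid cells and erythroid cells were at or near 0. The 6 ILC2 markers summed to 38.1 to 41.1 RPKM in the 4 libraries, but members went opposite ways: Il17rb was at 28.2 and 30.7 RPKM against 10.6 and 10.5 RPKM and Rora at 6.37 and 6.83 RPKM against 20.8 and 20.1 RPKM.

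The genes of both factors and their partners were themselves bound. Runx3 had 7 shared, 4 lone Bcl11b and 1 lone Runx3 peak, with its highest shared peak at the promoter (chr4:134676310-134676546, scores 172.6 and 392.4). Its RNA was 3.07 and 3.28 RPKM with the control guide and 17.97 and 18.2 RPKM with the Bcl11b guide, a rise of 2.34 ± 0.066, adjusted p = 2.58e-07. Both guide libraries lay above both control libraries by over 5-fold. Runx1 had 11 shared, 2 lone Bcl11b and 9 lone Runx3 peaks and was at 19.4 and 21.3 RPKM with the control guide and 19.8 and 19.5 RPKM with the Bcl11b guide (-0.049 ± 0.057, adjusted p = 0.487). That difference was called lower with median centring (-0.18, adjusted p = 0.0132), with quantile scaling (-0.17, adjusted p = 0.0224) and without the first control library (-0.12, adjusted p = 0.0410), and it turned to 0.018 without the second. Runx2, the family member of bone, was at 0.054 RPKM or less in every library. Cbfb, the shared subunit, had 2 shared peaks and was at 46.2 and 49.01 RPKM with the control guide and 51.8 and 50.95 RPKM with the Bcl11b guide, a difference of 0.11 ± 0.043, adjusted p = 0.0642 that turned to -0.025 with median centring and was called without the second control library (adjusted p = 0.00389). Gata3 carried 10 shared peaks, 9 of them 5699 to 319869 bp downstream of its start site, 1 lone Runx3 peak, and a lone Bcl11b peak 311 bp before the start site. Its RNA was 53.95 and 56.99 RPKM with the control guide and 63.1 and 66.2 RPKM with the Bcl11b guide (0.22 ± 0.045, adjusted p = 0.00506), a call lost with median centring (adjusted p = 0.142) and without the second Bcl11b guide library (adjusted p = 0.0671).

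The nearest-gene rule split some bound stretches between several names. Bcl11b itself had 8 shared peaks and 1 lone Runx3 peak by that rule. From the first peak named for 4933406K04Rik to the Bcl11b promoter, however, chr12:107822911-109242539 held 60 peaks of the 2 factors over 1419.6 kb, 47 of them shared, under only 3 gene names. The noncoding genes 4930465M20Rik and 4933406K04Rik took 20 and 19 of the shared ones, the most of any gene. Gm17746, with 17 shared peaks and RNA listed at 0 in every library, sits beside Id2, and the stretch from Id2 to its last peak held 30 peaks, 19 shared. Id2, which encodes an inhibitor of E proteins, was at 47.7 and 43.2 RPKM with the control guide and 214 and 218 RPKM with the Bcl11b guide (2.24 ± 0.051, adjusted p = 1.38e-07). The 2 strong lone Bcl11b peaks and the 2 lone Runx3 peaks named for Rdm1, the latter in annotated snRNA repeats, lay 19.7 to 23.7 kb from the start site of Arl4d, a small GTPase gene. Rdm1 was at 8.27 and 7.195 RPKM against 8.34 and 7.804 RPKM (0.061 ± 0.083, adjusted p = 0.559), while Arl4d was at 1.49 and 1.57 RPKM against 43.3 and 45.2 RPKM and rose by 4.46 ± 0.062, adjusted p = 2.33e-08. Arl4d also had 2 shared peaks of its own by the nearest-gene rule, at 7155 bp before and 53 bp after its start. These stretches were picked after their values were seen.

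Many genes with lone peaks also had shared ones, so groups of genes were set by which kinds of peak named them. A shared peak named 8260 genes of the RPKM table, of which 77.3% passed the filter of 1 RPKM in at least 2 libraries. Lone Bcl11b peaks alone named 977 genes (66.7% passed), and lone Runx3 peaks alone named 2063 genes, of which 43.7% passed. The median control level over all members was 8.67 RPKM for shared, 4.19 RPKM for lone Bcl11b and 0.136 RPKM for lone Runx3 genes. Genes without a peak of either factor numbered 12562, and 14.2% of them passed. Over all 24475 genes 41.8% passed, and the median control level was 0.0645 RPKM. Lone Runx3 genes thus lay near all genes in these 2 measures, and shared and lone Bcl11b genes lay above.

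Called genes made up 60.0% of the 6383 tested genes with any shared peak, with or without lone ones, close to the 57.8% over all genes. For lone Bcl11b genes it was 58.3% of 652 and for lone Runx3 genes 53.5% of 902. Calls of 2-fold or more came to 8.40%, 7.98% and 6.98%, against 8.43% over all genes. Genes tested only because they were high in 1 group had to differ, and without those under 1 RPKM in both libraries of a group the 2-fold shares were 6.71%, 6.66% and 2.93%, against 6.01% over all genes left. Genes with any shared peak and lone Bcl11b genes lay near the shares over all genes. Lone Runx3 genes lay below the 2-fold share once those were left out. The 3688 tested genes with shared peaks alone, set like the lone groups, were called in 55.3% of cases and changed 2-fold in 5.61%. Without those under 1 RPKM in both libraries of a group their 2-fold share was 4.38%, also below that over all genes left. Rises were 61.8% of the calls with shared peaks, 63.7% with lone Bcl11b and 54.7% with lone Runx3 peaks (60.7% over all genes), but 39.3%, 41.1% and 31.3% (38.5% over all) with median centring. The median change was 0.061, 0.063 and 0.023 as deposited and -0.073, -0.072 and -0.11 with median centring, where that over all genes went from 0.053 to -0.081. Without either Bcl11b guide library the calls dropped to 2458 to 2496, 234 to 240 and 287 to 296, and the call rate over all genes to 36.8% to 37.4%.

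Distance and the number of peaks went with the shares of genes called and changed 2-fold, though not at every step. Genes with a shared peak within 1 kb of the start site were called in 57.9% of cases and changed 2-fold in 5.68%. With any shared peak at 1 to 50 kb these shares were 69.7% and 17.6%, and with shared peaks alone at that distance 66.9% and 15.8%. With lone Bcl11b peaks alone at that distance they were 67.8% and 12.3%. Lone Runx3 peaks alone at 1 to 50 kb gave 59.8% and 9.93%. Genes with no peak at that distance stood at 53.0% and 4.98%. Genes with no peak within 1 kb, in turn, stood at 58.3% and 15.9%, but the second share was 8.99% without the 302 of them that were under 1 RPKM in both libraries of a group. Leaving out such genes, the 2-fold shares at 1 to 50 kb became 13.9% for shared, 10.1% for lone Bcl11b and 5.38% for lone Runx3 peaks and 3.35% for genes with none, against 6.01% over all genes left. Genes with 1, 2, 3 to 4 and 5 or more shared peaks were called in 56.2%, 66.7%, 70.9% and 78.5% of cases. This was not particular to shared peaks. By the number of lone Bcl11b peaks the shares were 61.7%, 67.8%, 75.4% and 90.9%, the last of only 11 genes. By the number of lone Runx3 peaks they were 59.3%, 61.9%, 73.3% and 72.2%. The 2-fold shares were 5.36%, 14.1%, 17.9% and 18.5% by the number of shared peaks. By lone Bcl11b peaks they were 9.08%, 13.7%, 20.4% and 9.09%, and by lone Runx3 peaks 8.30%, 10.1%, 19.5% and 19.4%. Genes counted here could hold other kinds of peak too. Those with peaks of all 3 kinds were called in 69.5% of cases and changed 2-fold in 14.0%. Genes differ in length and in the space around them, and the part of these in the shares was not tested.

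**Figure D4:**
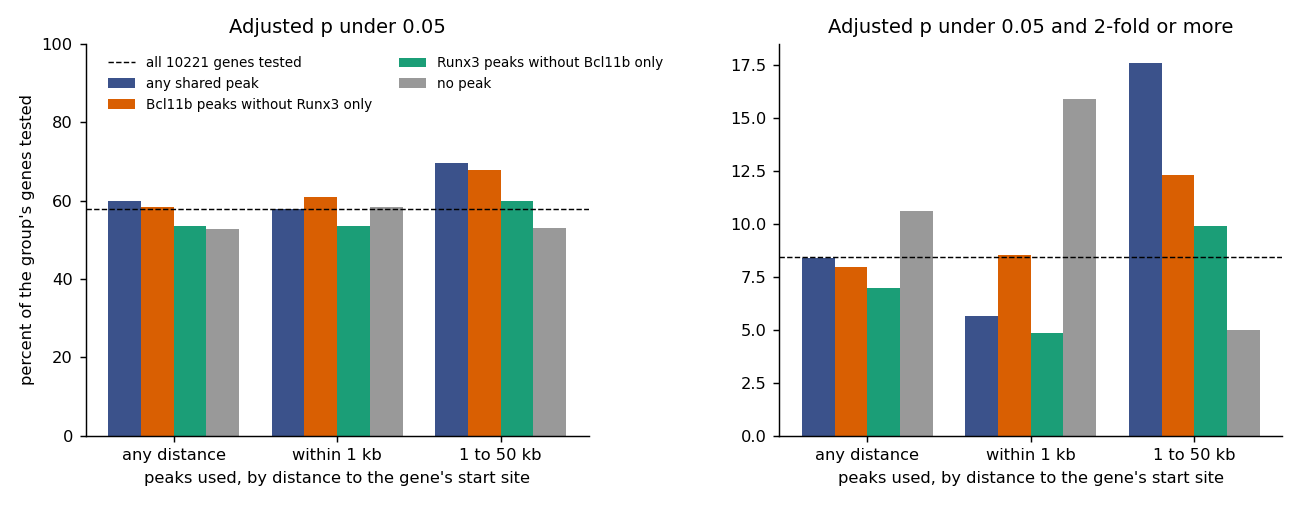
Percent of tested genes with an adjusted p under 0.05 (left) and with a change of 2-fold or more besides (right), by the kind and distance of their peaks; the dashed lines give all 10221 genes tested (57.8% and 8.43%). The groups stay near the lines for peaks at any distance, shared peaks at 1 to 50 kb reach 69.7% and 17.6%, and genes with no peak within 1 kb reach 15.9% on the right (8.99% without genes under 1 RPKM in both libraries of a group).

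Genes whose peaks were all shared included some of the largest changes of T-lineage and innate genes. Rag1, the recombinase of antigen receptor genes, had the shared promoter peak shown above (scores 54.5 and 110.5) and a second one 1201 bp into the gene. It was at 64.1 and 75.7 RPKM with the control guide and 11.7 and 11.01 RPKM with the Bcl11b guide, a change of -2.57 ± 0.078, adjusted p = 3.48e-07. Fcer1g, a signalling adaptor of Fc and NK receptors, had shared peaks 65 bp before the start site and 2281 bp into the gene. It was at 3.09 and 2.43 RPKM with the control guide and 47.3 and 51.4 RPKM with the Bcl11b guide, a rise of 3.94 ± 0.099, adjusted p = 1.71e-07. In both genes the groups stood apart by over 5-fold. Tyrobp, the partner adaptor, had 1 shared peak 19272 bp before its start and was at 0.123 and 0.206 RPKM against 11.3 and 11.2 RPKM (4.14 ± 0.098, adjusted p = 1.49e-07). Ccl5, a chemokine of cytotoxic lymphocytes, had 1 shared peak 19874 bp away in a LINE element and was at 1.61 and 1.81 RPKM against 35.8 and 37.3 RPKM (4.07 ± 0.071, adjusted p = 4.11e-08). Ly6c2, a surface protein of the Ly6 family near the top shared region, was at 0.308 and 0.458 RPKM against 46.5 and 42.6 RPKM (5.68 ± 0.10, adjusted p = 4.11e-08). All of the control values of these 3 genes were under 2 RPKM, and Tyrobp and Ly6c2, under 1 RPKM in both control libraries, were tested only through the guide libraries and had to differ. Among the falls, Notch3, a Notch receptor, was at 13.8 and 17.7 RPKM against 3.33 and 3.28 RPKM (-2.09 ± 0.11, adjusted p = 5.68e-06). Prss57, a serine protease with a shared promoter peak, was at 9.94 and 9.43 RPKM against 1.95 and 2.45 RPKM (-1.92 ± 0.10, adjusted p = 5.80e-06). Fbln2, a matrix protein, was at 6.13 and 6.25 RPKM against 1.15 and 1.002 RPKM (-2.09 ± 0.09, adjusted p = 1.83e-06). The shared peaks of Notch3, Fbln2 and Prss57 were all in the Runx1 list and none in the GATA3 list. Dsc2, a desmosomal cadherin with 2 shared peaks, was at 37.1 and 43.3 RPKM against 11.4 and 10.4 RPKM (-1.84 ± 0.081, adjusted p = 2.01e-06).

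Genes with lone Bcl11b peaks alone included rises from low levels, at peaks of low score, and falls. Ly6g, a granulocyte surface protein of the Ly6 family, was at 0.2 and 0.283 RPKM with the control guide and 35.9 and 32.4 RPKM with the Bcl11b guide (5.55 ± 0.093, adjusted p = 3.79e-08), with 1 intergenic peak of score 16.0. Slc2a6, a sugar transporter, was at 0.163 and 0.132 RPKM against 16.4 and 16.1 RPKM (4.70 ± 0.084, adjusted p = 4.43e-08) and had a peak 726 bp before its start. Cd52, a lymphocyte surface peptide, was at 3.94 and 2.83 RPKM against 80.2 and 85.4 RPKM (4.44 ± 0.12, adjusted p = 2.46e-07). These 3 genes were under 4 RPKM in both control libraries, and Ly6g and Slc2a6 were under 1 RPKM there and so were tested only through the guide libraries. Irf7, the interferon response regulator, was at 11.1 and 8.85 RPKM against 62.8 and 66.5 RPKM (2.64 ± 0.095, adjusted p = 7.56e-07) with a peak 432 bp inside it, and Mndal, an interferon-inducible gene, at 2.91 and 3.22 RPKM against 22.7 and 23.6 RPKM (2.73 ± 0.07, adjusted p = 1.75e-07). The scores of the 5 rising genes' peaks were 16.0 to 20.3, near the lowest score of the list, 15.1. Of the falls, Il17rb, the IL-25 receptor subunit, was at 28.2 and 30.7 RPKM against 10.6 and 10.5 RPKM (-1.44 ± 0.057, adjusted p = 1.19e-06), with its only peak, of score 22.8, at the promoter shown above. Cth, a cysteine synthesis enzyme, was at 9.63 and 8.53 RPKM against 4.21 and 4.297 RPKM (-1.01 ± 0.08, adjusted p = 4.60e-05) and had a promoter peak. Nmrk1, a nicotinamide riboside kinase, was at 10.1 and 11.5 RPKM against 4.49 and 4.73 RPKM (-1.15 ± 0.081, adjusted p = 2.57e-05). Each of these 3 falls was 2-fold or more. Necab1, a calcium-binding protein gene, was at 16.1 and 19.1 RPKM against 5.07 and 4.75 RPKM (-1.74 ± 0.088, adjusted p = 4.31e-06), and Arsi, a sulfatase gene with 4 lone Bcl11b peaks, at 43.8 and 45.5 RPKM against 7.38 and 7.24 RPKM (-2.53 ± 0.048, adjusted p = 5.84e-08).

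Genes with lone Runx3 peaks alone included large rises and falls. Ly6a, which encodes Sca-1, was at 5.13 and 3.37 RPKM with the control guide and 172 and 172 RPKM with the Bcl11b guide (5.21 ± 0.15, adjusted p = 2.66e-07), with 1 peak 23178 bp before its start. Nkg7, a cytotoxic granule protein, was at 0.992 and 1.499 RPKM against 43.2 and 42.6 RPKM (4.65 ± 0.13, adjusted p = 2.46e-07), with a peak at its transcript end that was in both ILC2/b6 lists. Gimap4, a GTPase of lymphocytes with 2 peaks, was at 2.37 and 1.58 RPKM against 60.5 and 61.1 RPKM (4.65 ± 0.13, adjusted p = 2.67e-07). In these 3 genes all guide values were far above all control values. Asb2, a ubiquitin ligase subunit, was at 0.444 and 0.247 RPKM against 16.6 and 16.1 RPKM (4.33 ± 0.12, adjusted p = 2.56e-07) and Arg1, an arginase, at 0.374 and 0.432 RPKM against 14.5 and 13.2 RPKM (3.99 ± 0.09, adjusted p = 1.29e-07), both tested only through the guide libraries. Notch1, the receptor that drives T-lineage entry, had a single peak, lone Runx3 with a score of 15.2, and was at 68.5 and 81.9 RPKM against 23.9 and 23.5 RPKM (-1.64 ± 0.078, adjusted p = 2.98e-06). Gja1, a gap junction protein, was at 14.5 and 16.2 RPKM against 6.63 and 6.81 RPKM (-1.13 ± 0.071, adjusted p = 1.28e-05). Fzd10, a Wnt receptor, was at 6.23 and 7.15 RPKM against 3.14 and 3.097 RPKM (-0.99 ± 0.088, adjusted p = 8.31e-05) and had 2 peaks, both in the Runx1 list. Sap30, a subunit of the Sin3 corepressor, was at 32.3 and 26.9 RPKM against 14.9 and 14.7 RPKM (-0.97 ± 0.082, adjusted p = 6.25e-05). Fam162a was at 153 and 106 RPKM against 53.5 and 53.4 RPKM (-1.24 ± 0.15, adjusted p = 0.000355), and its 2 control libraries differed by more than those of the other 4 falls. These genes were chosen for having no listed Bcl11b peak and a called change, so neither is a result about them. Of tested genes with no peak of either factor 52.8% were called, against 53.5% of lone Runx3 genes. Nearest-gene names can miss farther peaks. Ly6c2, Ly6g and Ly6a were the largest rise named for each kind, and their peaks lay in 1 stretch of 117.0 kb, chr15:74851511-74968510, with 2 shared peaks and 1 of each lone kind.

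**Figure D5:**
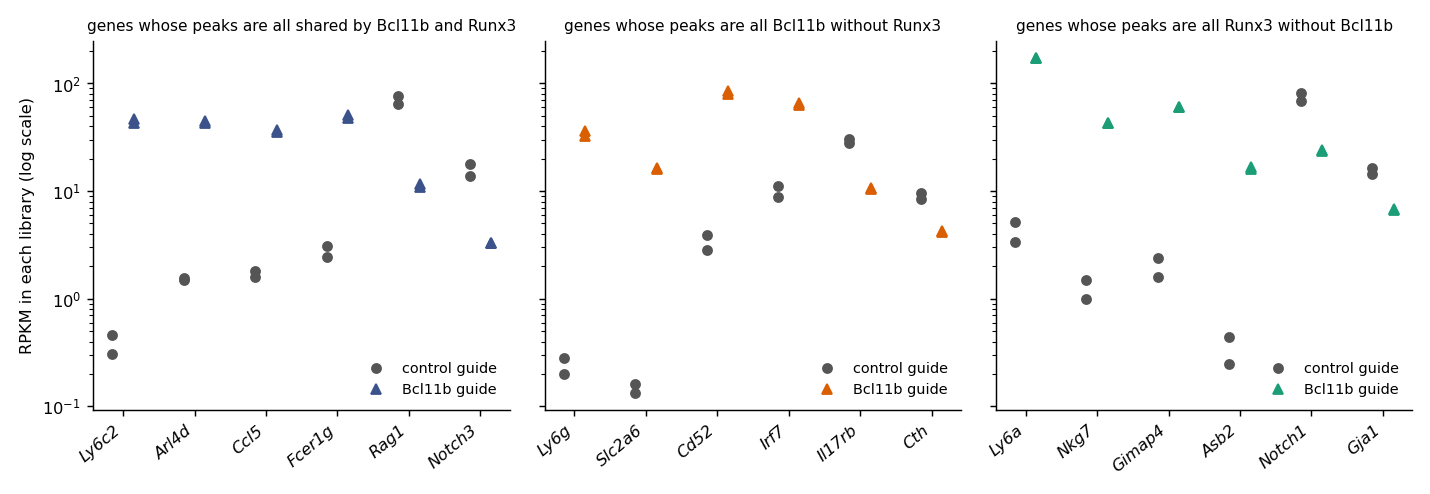
RPKM on a log axis in each of the 2 control guide (circles) and 2 Bcl11b guide libraries (triangles), for 6 named genes of each kind: 4 that rose and 2 that fell. The genes were named for large called changes, so that the libraries do not overlap for any of the 18, from Ly6c2 (0.308 and 0.458 against 46.5 and 42.6 RPKM) to Gja1, follows from this choice. Ly6c2, Ly6g, Slc2a6 and Asb2 were tested only through the guide libraries.

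Peak kinds were then read across 8 gene lists, whose counts stand against 35.1% of all tested genes that rose and 22.7% that fell. Their peak counts stand against 8260 of all 24475 genes with a shared peak, and 6383 of the 10221 tested. No peak of either factor was named for 12562 of all genes and 1787 of those tested. All 20 Runx factors and partners had a shared peak, 95 shared peaks in all against 21 lone Bcl11b and 27 lone Runx3 peaks, and 18 were tested, of which 9 rose and 5 fell (median change 0.16, 0.053 over all genes; with median centring 8 rose and 8 fell, median 0.030). Spi1, among the 9 rises, was tested only through the guide libraries. Lef1, a T-cell HMG factor with 9 shared peaks, was at 34.9 and 41.1 RPKM with the control guide and 8.27 and 8.2 RPKM with the Bcl11b guide (-2.13 ± 0.077, adjusted p = 8.07e-07), and Fli1, an Ets factor with 10, at 12 and 12.96 RPKM against 22.2 and 21.6 RPKM (0.79 ± 0.056, adjusted p = 2.60e-05). Of 26 corepressor and NuRD subunits, 18 had a shared peak and 3 (Hdac2, Gatad2b and Bmi1) had no peak at all. Of the 25 tested, 11 rose, 5 fell and 9 did not pass (median change 0.092), while with median centring 8 rose and 8 fell (median -0.042). Tle3, a Groucho corepressor with 2 shared peaks and a lone Bcl11b peak at its promoter, was at 20.7 and 20.9 RPKM against 34.6 and 35.4 RPKM (0.74 ± 0.042, adjusted p = 7.34e-06). Mta3 and Mbd2, both NuRD subunits, rose by 0.17 and 0.19, calls that were lost with median centring (0.031 and 0.052) and without the first guide library, and for Mta3 also with quantile scaling and without the second guide library. Rbbp4, a histone-binding NuRD subunit named for its promoter, was at 75.01 and 70.9 RPKM against 69.99 and 69.2 RPKM (-0.067 ± 0.042, adjusted p = 0.206), which became a lower call with median centring (-0.20, adjusted p = 0.0190). Of 25 T-lineage genes, 20 had a shared peak, and 11 of 19 tested rose while 6 fell (9 and 7 with median centring). Themis, a regulator of T-cell receptor signalling, carried 10 shared peaks and was at 14.5 and 14.1 RPKM against 28.4 and 27.03 RPKM (0.93 ± 0.049, adjusted p = 5.06e-06). Tox and Cd28 rose as well, by 1.13 and 1.30, while Thy1 fell (-0.57). Ptcra, which encodes the alpha chain of the pre-TCR, with 1 shared peak and the lone Runx3 peak at the promoter shown above, was at 31.6 and 31.1 RPKM against 7.96 and 7.88 RPKM (-1.92 ± 0.048, adjusted p = 1.71e-07). The smaller rise of Cd247 (0.16) was lost with median centring and without either guide library.

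The Notch list moved one way with mixed peaks. All 9 tested members fell, with a median of -1.72 against 0.053 over all genes, where 22.7% of genes fell. Of the 12 members 8 had a shared peak, and the list held 19 shared, 16 lone Bcl11b and 13 lone Runx3 peaks. Nrarp, a feedback inhibitor of Notch, had the most lone Bcl11b peaks of the list, 6, with 2 lone Runx3 peaks and no shared one. Its strongest, with a score of 61.9, was at the promoter shown above (chr2:25035996-25036232), and 4 of the other 5 lay 5082 to 12728 bp from the start site. Nrarp was at 152 and 159 RPKM with the control guide and 48.6 and 45.2 RPKM with the Bcl11b guide, a change of -1.72 ± 0.048, adjusted p = 2.58e-07. Dtx1, a Notch pathway ubiquitin ligase, had 2 shared peaks in an intron, a lone Bcl11b peak at its start and a weak lone Runx3 peak, and was at 106 and 120.0 RPKM against 33.1 and 32.4 RPKM (-1.77 ± 0.058, adjusted p = 5.15e-07). Il2ra, the IL-2 receptor alpha chain, had 6 shared peaks and 1 lone Runx3 peak, all 6 shared ones in the Runx1 list, and was at 150.3 and 168 RPKM against 44.3 and 42.8 RPKM (-1.86 ± 0.058, adjusted p = 3.71e-07). Hes1, a Notch target repressor with 2 shared, 1 lone Bcl11b and 4 lone Runx3 peaks, was at 38.02 and 36.1 RPKM against 19.9 and 20.1 RPKM (-0.87 ± 0.045, adjusted p = 4.51e-06). Each of the 4 libraries kept to its group in all 4 genes.

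NK and innate genes were looked up next. Of 27 members 17 had a peak and 12 a shared one, 16 were tested, and 13 rose, 1 fell and 2 did not pass, with a median of 3.30. The other 11 were under 1 RPKM in at least 3 libraries, and 6 of the 16 tested (Ncr1, Tyrobp, Prf1, Ccl3, Ccl4 and Ifng) were under that level in both control libraries and passed only through the guide libraries, so this count supports nothing about the list. Markers of NK cells moved with it: the sum of 3 was 0.227 and 0.288 RPKM for the control guide and 38.7 and 37.3 RPKM for the Bcl11b guide, nearly all of it Ncr1, while Eomes was at 0.060 RPKM or less, and the part of other cells in these rises was not tested. Ncr1, Ccl3 and Ccl4 had no peak of either factor. Il12rb1, a chain of the IL-12 receptor with 2 shared and 1 lone Bcl11b peak, was at 9.01 and 7.99 RPKM against 35.1 and 34.9 RPKM (1.98 ± 0.063, adjusted p = 4.41e-07). Nfil3, an innate lymphoid factor with 3 lone Bcl11b peaks, was at 5.15 and 3.19 RPKM against 6.33 and 5.33 RPKM (0.47 ± 0.19, adjusted p = 0.0702), which became a call without the first control library (adjusted p = 2.92e-05) and with the replicate block (adjusted p = 0.000554). Klrb1c and Zbtb16 had 6 shared peaks each and were not tested, at 0.079 and 0.022 RPKM against 0.993 and 0.922 RPKM for Klrb1c and 0.112 and 0.169 RPKM against 0.988 and 1.197 RPKM for Zbtb16.

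Cytokine and trafficking genes gave further mixed loci. Of 25 cytokine receptors and signals, 24 had a peak and 19 a shared one, and of the 20 tested 13 rose and 7 fell (median 0.97; 35.1% and 22.7% over all genes). Of the rises, Bcl2, Irf4 and Prdm1 were under 1 RPKM in both control libraries and tested only through the guide libraries. Il7r, the IL-7 receptor, had 5 lone Runx3 peaks, one of them at the promoter shown above (score 49.3), with 2 shared and 1 lone Bcl11b peak, and was at 27.3 and 29.7 RPKM with the control guide and 14.7 and 14.99 RPKM with the Bcl11b guide (-0.92 ± 0.055, adjusted p = 1.01e-05). Socs3, a feedback inhibitor of cytokine signals, had 5 shared and 4 lone Bcl11b peaks and no lone Runx3 peak, and was at 12.4 and 13.7 RPKM against 3.43 and 3.94 RPKM (-1.69 ± 0.087, adjusted p = 4.56e-06). Irf4 was at 0.852 and 0.891 RPKM against 2.299 and 2.25 RPKM (1.02 ± 0.094, adjusted p = 9.83e-05), and Socs1, with 8 shared peaks, was at or under 0.075 RPKM in every library. Il9r, the IL-9 receptor, which had 3 shared peaks alone, was at 11.5 and 12.01 RPKM against 4.44 and 4.91 RPKM (-1.25 ± 0.074, adjusted p = 9.79e-06), and is named for the promoter shown above. Of 18 trafficking genes 14 had a shared peak, and 8 of 12 tested rose and 2 fell (median 1.17; 8 and 3 with median centring). Klf2 and Cxcr6, among the 8, were under 1 RPKM in both control libraries and tested only through the guide libraries. Cxcr4, a homing receptor, had the most peaks of the list, 13 shared and 5 of each lone kind, and was at 98.6 and 104 RPKM against 77.5 and 73.7 RPKM (-0.42 ± 0.044, adjusted p = 0.000199). Itga4, the integrin alpha 4 chain, had 8 lone Runx3 peaks, 3 shared and 1 lone Bcl11b peak, and was at 11.5 and 12.05 RPKM against 31.6 and 32.97 RPKM (1.42 ± 0.051, adjusted p = 7.50e-07). Klf2, a regulator of lymphocyte exit, had 7 shared peaks alone and was at 0.884 and 0.461 RPKM against 5.46 and 4.84 RPKM (2.29 ± 0.17, adjusted p = 3.25e-05). Cxcr6, a chemokine receptor with 2 shared peaks alone, also named for its promoter, was at 0.508 and 0.595 RPKM against 11.1 and 11.1 RPKM (3.47 ± 0.087, adjusted p = 1.71e-07). Ccr4, with 7 peaks of the 3 kinds, was at 7.51 and 7.46 RPKM against 7.45 and 7.47 RPKM (-0.0042 ± 0.063, adjusted p = 0.959), which became a lower call with quantile scaling (-0.18, adjusted p = 0.0287). Of 14 stem and progenitor genes 8 had a peak and only 2 were tested: Spi1, the myeloid factor PU.1 with 1 shared and 1 lone Bcl11b peak, was at 0 and 0.02 RPKM against 3.31 and 2.71 RPKM (2.78 ± 0.12, adjusted p = 1.94e-06), and Flt3, with 2 shared peaks, at 1.45 and 1.42 RPKM against 0.405 and 0.465 RPKM (-1.05 ± 0.10, adjusted p = 0.000138). Both passed the filter only through the group where they were high and had to differ, so these calls support nothing.

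Several genes with the most peaks of a kind had little RNA or small differences. Efna5, an ephrin, had 19 lone Runx3, 9 shared and 3 lone Bcl11b peaks and was at or under 0.019 RPKM in every library. Gse1 (7 lone Bcl11b and 15 shared peaks) was at 23.6 and 26.4 RPKM against 28.4 and 29.1 RPKM (0.20 ± 0.059, adjusted p = 0.02205), and Bcor, a BCL6 corepressor (7 and 9), at 21.2 and 23.3 RPKM against 27.5 and 26.7 RPKM (0.28 ± 0.056, adjusted p = 0.00432). B3gnt2, a glycosyltransferase with 6 lone Bcl11b and 11 shared peaks, was at 20.5 and 19.8 RPKM against 26.99 and 28.5 RPKM (0.45 ± 0.049, adjusted p = 0.000225). The call of Gse1 was lost with median or quantile scaling, without a filter on low values and without either guide library. Fbxo33, with 10 lone Runx3 peaks, was at 6.04 and 7.16 RPKM against 9.02 and 8.24 RPKM (0.37 ± 0.093, adjusted p = 0.0128), a call lost with quantile scaling (adjusted p = 0.0719), without a filter (adjusted p = 0.0647) and without the first guide library (adjusted p = 0.122). Dynlt1f had 18 shared peaks and no lone one, among them pairs of intervals with equal scores, and was at 729 and 721 RPKM against 636 and 646 RPKM (-0.18 ± 0.048, adjusted p = 0.0166), a difference that turned to 0.012 with quantile scaling and a call lost with the replicate block (adjusted p = 0.0605) and without either guide library (adjusted p = 0.247 and 0.193). Of the genes nearest the 5 top peaks of each kind, Hgsnat, which had 3 lone Bcl11b peaks, rose and was at 1.67 and 2.07 RPKM against 7.15 and 7.08 RPKM (1.69 ± 0.10, adjusted p = 1.01e-05), Ptma, prothymosin alpha, fell and was at 1838 and 1735 RPKM against 1207 and 1174 RPKM (-0.58 ± 0.064, adjusted p = 0.000233), Mrps28 fell by 0.38, Grhl3 fell by 0.66 and Zfp568 rose by 0.49. Grhl3 was tested only through the control libraries, and the call of Zfp568 was lost without the first guide library (adjusted p = 0.0552) and without a filter (adjusted p = 0.0563). Rdm1, Rn45s, Phactr4 and 6820431F20Rik did not pass, and Gm21119, Tdrd1, G530011O06Rik and Mir6965 were not tested. Rn45s became a call with the replicate block (adjusted p = 0.0240) and without the first control library (adjusted p = 0.00158), Phactr4 a lower one with median centring (-0.17, adjusted p = 0.0198) and quantile scaling (-0.17, adjusted p = 0.0186), and 6820431F20Rik one without the second control library (adjusted p = 7.08e-05).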

How the data were processed

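Bcl11b and Runx3 binding (ChIP-seq, 2 libraries each) and RNA (2 libraries each of control and Bcl11b guide) were compared in Scid.adh.2c2, 8 of the series' 32 samples. The deposited peak lists, 1 per factor, give HOMER positions, annotation, nearest gene and a peak score per interval on mm9, per the file headers. The submitters' processing notes name Bowtie 1.1.1, HOMER, STAR 2.4.0, RSEM 1.2.25, edgeR 3.6.8, mm9 and NCBIM37, without their roles. The labels name more than 1 kind of input library and do not tie them to the lists. RNA values are RPKM computed by the authors, per the file headers. In each library 100.0% of the low RPKM values tested were whole multiples of 1 read within 0.1 read, which gave depths of 34.7 to 43.7 M (mega) reads. At these depths 3 reads on a 2 kb transcript are 0.0343 to 0.0432 RPKM.

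Peaks were called shared at an overlap of 1 bp or more. Genes were those the deposited annotation names for each peak. The RNA comparison used limma 3.58.1 (R 4.3.3) on log2(RPKM + 0.5) with a mean-variance trend for genes at 1 RPKM or more in at least 2 libraries. p-values were Benjamini-Hochberg adjusted and genes called under 0.05. The + 0.5 understates changes of low genes. The code was tested on simulated data. The RNA kit named in the labels does not mark strand, so antisense and overlapping genes cannot be told apart. Promoters came from RefSeq (GRCm38.p6), 250 bases before to 50 after the start site. Python 3.11.15 with pandas 2.3.3 was used for intervals.

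Named genes are the 2 factors with Runx1, Runx2, Cbfb and Gata3, the genes nearest the 5 highest scoring peaks and with the most peaks of each kind, the 5 largest called rises and falls per kind among genes with peaks of that kind alone and a mean of at least 5 RPKM in a group, and the 5 members with most peaks of each gene list. Others are said to be chosen after their values were seen. The members, lists and tests were chosen with earlier results of these data known. Alternatives were other overlap and score rules, pseudocounts, filters, scalings, a replicate block and leaving out each RNA library. Leaving out genes under 1 RPKM in both libraries of a group was added after seeing the data.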

Additional observations from a re-analysis of the deposited data

How the results depend on the processing

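The kinds of peak moved with the matching rule and with a cut on the score. With an overlap of at least 50% of each peak's width, the shares of shared, lone Bcl11b and lone Runx3 peaks within 1 kb of a start site were 41.6%, 48.1% and 31.5%, those with GATA3 18.2%, 11.2% and 12.0%, and those with Runx1 78.1%, 14.3% and 36.6%. With centres at most 100 bp apart they were 40.9%, 48.9% and 33.0%, then 17.5%, 10.7% and 10.7%, then 77.3%, 16.0% and 36.3%. With only peaks of score 30 or more, there were 4907 shared and 3019 lone Bcl11b peaks, and the shares were 40.2%, 57.9% and 35.1%, then 19.9%, 12.1% and 13.5%, then 72.0%, 4.37% and 35.1%. The order of the 3 kinds for Runx1 was the same in each. Genes that fell numbered 3934 with median centring and 3918 with quantile scaling, against 2319.

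Leaving out 1 RNA library at a time gave 3760 to 6878 called genes, 2404 to 4334 that rose and 1356 to 2873 that fell. Called genes with a shared peak then numbered 2458 to 4401, with lone Bcl11b peaks alone 234 to 432 and with lone Runx3 peaks alone 287 to 576; the lowest values came without 1 of the guide libraries, where the lone sample is assumed to vary like the other group. Single genes that changed sign were, over leaving out 1 library at a time, Runx1 (-0.12 to 0.018), Rdm1 (-0.034 to 0.16), Phactr4 (-0.070 to 0.0051) and 6820431F20Rik (-0.076 to 0.24), and 6820431F20Rik (-0.051), Cbfb (-0.025) and Rdm1 (-0.074) with median centring, and Rdm1 (-0.11) and Dynlt1f (0.012) with quantile scaling. None of these 6 genes but Dynlt1f was called as deposited, and the causes were not tested. Of 77 named genes tested, 60 kept call and direction in all 10 settings. The replicate block gave 5921 called genes against 5908. The numbers share only a label: deviations of same-numbered libraries correlated by 0.037 over 10221 genes, with 2 pairs. The lists give no read depth, so the intervals on peak shares hold counting error only.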
